A study of Mus musculus with 11 samples.

Results

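Cytotoxic lymphocytes were followed through 10 genes in imiquimod-treated mouse skin: the granule proteases Gzma, Gzmb and Gzmc, the pore-forming protein Prf1, the granule membrane protein Nkg7, and the natural killer receptors Ncr1, Klrb1c, Klra4, Klrd1 and Klrk1. They were taken by symbol from a table of 38406 genes, and all 10 were found in it. Back skin came from female mice of the C57BL/6 strain, 8 to 10 weeks old, which received 125 mg of cream with 5% imiquimod on each of 4 days and were killed 24 hours after the last dose. Imiquimod stimulates the receptor TLR7 and gives a psoriasis-like inflammation. The 6 knockout mice were Trex2-/-, without the DNA exonuclease that keratinocytes make, and the 5 others were wild type. Both groups were treated, and skin without imiquimod was not analysed here.

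Natural killer cells and cytotoxic T cells kill by releasing granules at the contact with a target cell. Perforin opens the target membrane, granzymes pass through and cleave proteins inside, and the release is gated by activating and inhibitory receptors that read ligands on the target. In mouse skin these genes are not the property of 1 cell type: natural killer cells carry Ncr1 and Klrb1c, while gamma delta T cells of the epidermis also make granzymes and the receptor encoded by Klrk1. In a bulk sample, fewer such cells and less RNA per cell cannot be told apart.

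The 10 genes were chosen by their role, with the normalized counts of these same libraries and their differences between knockout and wild-type skin already known. Their differences between the genotypes are therefore given as a description, and counts of calls among them support nothing.

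The libraries held 3125366 to 15557862 counted reads in knockout and 1208896 to 5853454 in wild type, so knockout was sequenced more deeply (exact permutation test of the mean, two-sided, 462 splits, p = 0.026, n = 6 and 5). Trex2 stood at 0.794 to 3.47 normalized counts in knockout libraries and 1125 to 2196 in wild-type libraries, which matches the genotype on each label. A normalized count is a read count divided by the size factor of its library. A single read was worth 0.347 to 1.74 normalized counts in knockout and 0.908 to 4.51 in wild type, so 3 reads, taken as the floor of detection, correspond to 13.5 normalized counts in wild-type replicate 3. Keratinocytes (Krt14) and fibroblasts (Col1a1) were abundant in every library, as back skin should have them.

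The genes lie in 6 places in the genome (GRCm38). Klrb1c, Klrd1, Klrk1 and Klra4 sit within 1.29 megabases of chromosome 6, in the natural killer gene complex. Gzmb (chr14:56258838-56262260, minus strand) and Gzmc (chr14:56231441-56234656, minus strand) lie 30.82 kilobases apart at their outer ends. Gzma is on chromosome 13, Prf1 on chromosome 10, and Nkg7 and Ncr1 are far apart on chromosome 7. Promoters are shown as sequence only, and whether their letters bear on the levels was not tested. Of the 10 genes, 9 had a window of 250 bases before to 50 after the start in the RefSeq table (GRCm38.p6), and Klrd1 was not in it. The windows below are those of Gzma (chr13:113100932-113101231, minus strand), Gzmb (chr14:56262285-56262584, minus strand), Prf1 (chr10:61297586-61297885, plus strand), Klrb1c (chr6:128788592-128788891, minus strand) and Klra4 (chr6:130067222-130067521, minus strand). They are written 5′ to 3′ on the strand of the gene, and capitals mark the letters TGTGGT or their reverse complement ACCACA, the core bound by RUNX factors.
Gzma: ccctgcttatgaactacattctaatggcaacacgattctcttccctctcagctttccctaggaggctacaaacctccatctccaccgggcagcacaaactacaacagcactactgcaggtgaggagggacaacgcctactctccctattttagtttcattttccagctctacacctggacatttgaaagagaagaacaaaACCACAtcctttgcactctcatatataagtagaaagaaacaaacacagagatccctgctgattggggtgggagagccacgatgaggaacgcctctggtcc
Gzmb: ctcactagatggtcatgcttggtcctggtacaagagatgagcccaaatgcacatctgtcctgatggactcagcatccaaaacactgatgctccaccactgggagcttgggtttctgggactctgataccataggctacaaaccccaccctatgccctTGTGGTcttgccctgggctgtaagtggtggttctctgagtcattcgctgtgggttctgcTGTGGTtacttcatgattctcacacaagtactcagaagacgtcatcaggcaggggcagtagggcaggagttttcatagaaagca
Prf1: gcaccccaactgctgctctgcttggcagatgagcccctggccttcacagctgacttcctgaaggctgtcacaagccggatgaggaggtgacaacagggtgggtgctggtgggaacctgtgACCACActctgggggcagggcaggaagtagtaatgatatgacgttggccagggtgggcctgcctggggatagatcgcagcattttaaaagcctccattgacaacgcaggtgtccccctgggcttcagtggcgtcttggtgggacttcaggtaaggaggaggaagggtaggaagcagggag
Klrb1c: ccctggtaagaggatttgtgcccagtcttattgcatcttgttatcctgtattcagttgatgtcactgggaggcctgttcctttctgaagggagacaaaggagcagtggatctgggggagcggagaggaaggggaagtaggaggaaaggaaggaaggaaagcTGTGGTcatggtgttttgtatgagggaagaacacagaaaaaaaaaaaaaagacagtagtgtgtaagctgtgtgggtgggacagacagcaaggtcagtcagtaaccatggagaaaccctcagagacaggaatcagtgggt
Klra4: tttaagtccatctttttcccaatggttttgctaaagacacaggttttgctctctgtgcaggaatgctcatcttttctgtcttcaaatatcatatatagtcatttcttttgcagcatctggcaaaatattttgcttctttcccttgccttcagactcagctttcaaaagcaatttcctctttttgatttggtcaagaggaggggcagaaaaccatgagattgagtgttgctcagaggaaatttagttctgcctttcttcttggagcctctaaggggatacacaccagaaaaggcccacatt

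RUNX letters were found in 8 of the 9 windows and in 16.9% of 27025 promoter windows of the same length, 1 per symbol. Klra4 was the 1 gene without them. In Gzma they start 50 bases before the transcription start, in Prf1 130 bases and in Klrb1c 89 bases before it, while Gzmb has 2 copies that start 93 and 34 bases before it. The other motifs searched on both strands were less frequent among the 9. The T-box letters GTGTGA stood in 3 of them (Gzmb, Ncr1 and Nkg7) against 14.4% of all windows. The ETS letters GGAAGT stood in 3 (Gzmc, Klrb1c and Prf1) against 24.1%, and the AP-1 letters TGANTCA in 2 (Gzmb and Klrk1) against 7.93%. The CRE letters TGACGTCA stood in 1 (Gzmc) against 1.88%, and the TATA letters TATAAA in 0 against 14.2%. No match overlapped a match of another motif in these windows. A match in these letters is a description of the sequence and not a binding site.

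Per kilobase of exon, Gzma was the most abundant of the 10 in both genotypes. It had 46.1 ± 11.8 normalized counts per kilobase in knockout and 167 ± 61.9 in wild type (SD, n = 6 and 5). Gzmb followed with 21.1 ± 10.6 in knockout and 44.7 ± 12.3 in wild type, close to Nkg7 with 18.9 ± 9.8 and 39.5 ± 13.3 on the same scale. Gzmb and Nkg7 did not differ beyond their spread. Klra4 (5.53 ± 1.74 in knockout and 15.8 ± 5.95 in wild type), Prf1 (5.14 ± 1.65 and 11.4 ± 5.87) and Klrb1c (4.48 ± 2.46 and 9.25 ± 2.17) formed a middle range with overlapping spreads. Klrd1, Gzmc and Ncr1 averaged 3.03 to 4.69 per kilobase in knockout and 5.25 to 6.93 in wild type, again within their spread. Klrk1 had the lowest level at 1.16 ± 0.398 in knockout and 1.66 ± 0.832 in wild type, over an annotated exon length of 7183 bases.

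**Figure D1:**
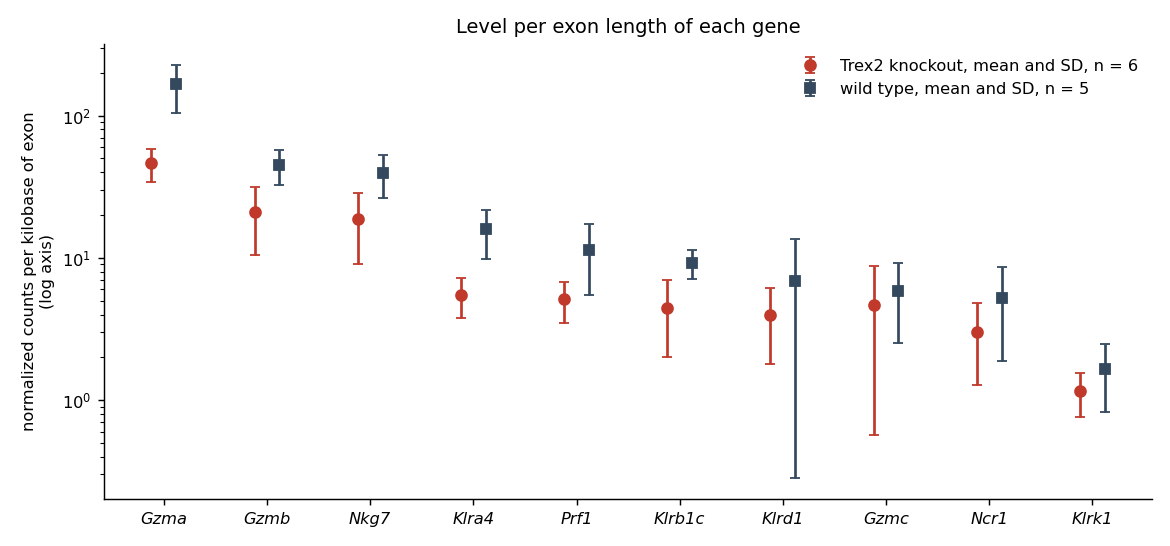
Normalized counts per kilobase of annotated exon (log axis) for each gene, as mean and SD of 6 knockout libraries (circles, left) and 5 wild-type libraries (squares, right). Gzma is highest in both genotypes, at 46.1 and 167, and Klrk1 lowest, at 1.16 and 1.66.

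The 5 granule protein genes had lower means in knockout skin, Gzma by the widest margin. Gzma, a protease that cleaves after basic residues, had a lowest, median and highest value of 26.4, 50.7 and 57.3 normalized counts in knockout libraries, against 169, 244, 70.05, 178 and 177 in wild-type replicates 2 to 6. No knockout library reached the lowest wild-type library, replicate 4. The knockout mean was 27.7% of the wild-type mean, from 455 reads in knockout and 519 in wild type in all. The log2 fold change of knockout over wild type was computed on log2(normalized count + 1), where low genes appear to change less than they do, and was −1.77 (SE 0.29, limma).

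Gzmb, which cleaves after aspartate and starts apoptosis in the target, had 17.5, 23.4 and 55.5 normalized counts as lowest, median and highest in knockout, against 47.2, 67.7, 50.04, 91.7 and 64.3 in wild-type replicates 2 to 6. Knockout replicate 7 lay inside the wild-type range and the other 5 lay below it. The log2 fold change was −1.14 (SE 0.30). Gzmc, a granzyme of the same chromosome 14 cluster, was near the floor, with 1.61, 2.57 and 11.1 normalized counts in knockout and 5.44, 9.03, 4.45, 0.908 and 6.28 in wild type. It had 3 reads or fewer in 5 of the 11 libraries, and the groups overlapped throughout. The ratio of its read rates, knockout over wild type, was 1.01, and 0.546 to 2.01 was its exact 95% interval for counting error alone, so a difference in Gzmc was not detectable at this depth.

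Prf1 had 8.73, 12.2 and 19.1 normalized counts in knockout, against 9.07, 40.6, 17.8, 43.6 and 36.1 in wild type. Wild-type replicates 2 and 4 lay within the knockout range, and the other 3 above it. Its log2 fold change was −0.94 (SE 0.39). Nkg7, which takes part in granule release, had 9.01, 15.4 and 33.0 in knockout, against 32.7, 31.6, 22.2, 39.0 and 54.9 in wild type. Knockout replicate 7 again stood among the wild-type libraries while the other 5 were below all of them. The log2 fold change was −1.10 (SE 0.34).

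**Figure D2:**
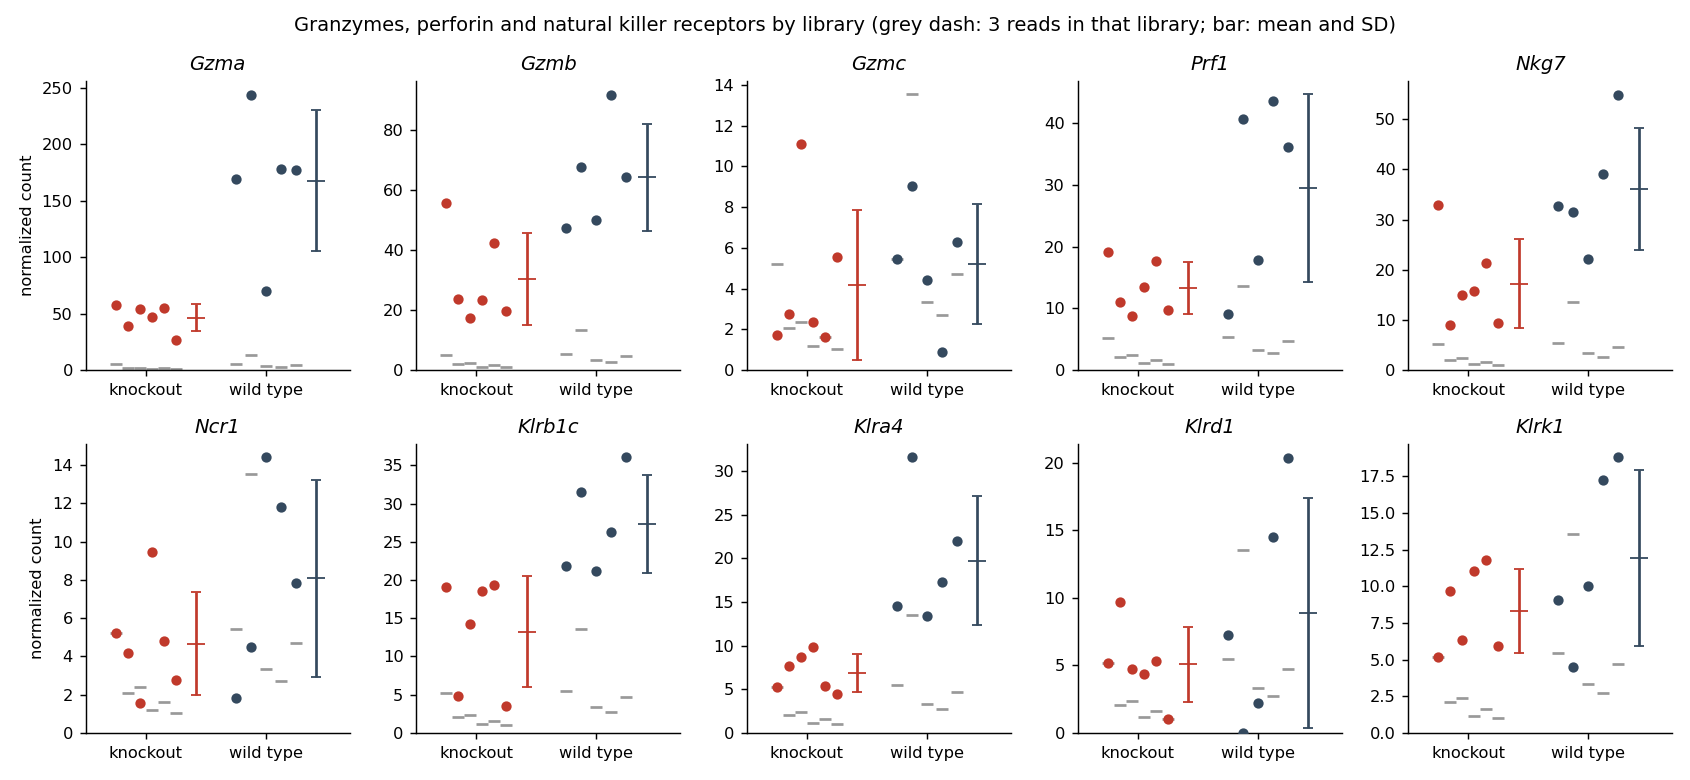
Normalized count of each gene in every library, knockout left and wild type right, with the mean and SD beside the points and a grey dash at the value of 3 reads in each library. Gzma, Klrb1c and Klra4 show no overlap between the groups, which held, with knockout the lower, for 1.29% of tested genes. Gzmc, Ncr1, Klrd1, Klrk1 and, in 1 library, Klra4 reach down to the dash.

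Among the receptors, only Klrb1c and Klra4 had groups that did not overlap. Klrb1c encodes an activating receptor that serves as a marker of natural killer cells in C57BL/6 mice. It had 3.47, 16.4 and 19.3 normalized counts as lowest, median and highest in knockout, against 21.8, 31.6, 21.1, 26.3 and 36.1 in wild-type replicates 2 to 6. The groups did not overlap, but the gap between knockout replicate 11 and wild-type replicate 4 was 19.3 against 21.1, and the fold change was −1.20 on the log2 scale (SE 0.42). Part of Klrb1c overlaps the annotated exons of Gm44511 on the same strand, and 16.98% of its stretches of 50 bases also occur in transcripts of other genes, among them Klrb1a and Klrb1b.

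Klra4 encodes Ly49D, an activating receptor that signals through the adaptor Tyrobp. It had 4.51, 6.49 and 9.86 normalized counts in knockout, against 14.5, 31.6, 13.3, 17.2 and 21.97 in wild type, with no overlap and a log2 fold change of −1.37 (SE 0.32). It rests on 73 reads in knockout and 60 in wild type. Of its stretches of 50 bases 4.68% occur in other transcripts, mostly Klra1, so the authors' counting could place some reads of the Ly49 family elsewhere.

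The other receptors were too low for the test, for which a gene needed 10 or more normalized counts on average. Ncr1, the activating receptor NKp46 of natural killer cells, had 1.59, 4.49 and 9.47 in knockout, against 1.81, 4.51, 14.5, 11.8 and 7.85 in wild type, with overlapping groups. Klrd1, the CD94 chain that pairs with NKG2 proteins to read the class I molecule of H2-T23, had 1.04, 4.98 and 9.70 in knockout, against 7.26, 0, 2.22, 14.5 and 20.4 in wild type. Wild-type replicate 3, where 3 reads are worth 13.5 normalized counts, had no read of Klrd1, and that count of 0 says little. Klrk1, the receptor NKG2D for stress-induced ligands, had 5.21, 8.03 and 11.8 in knockout, against 9.07, 4.51, 10.01, 17.2 and 18.8 in wild type. Its mean over all libraries was 9.97, just under the minimum.

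The ratio of read rates, knockout over wild type, was 0.509 for Ncr1 (95% interval 0.323 to 0.813), 0.434 for Klrd1 (0.274 to 0.692) and 0.646 for Klrk1 (0.449 to 0.941). These intervals cover counting error only and leave out the spread between mice. The SD over wild-type libraries, which holds both, was 5.16 on a mean of 8.09 for Ncr1, 8.52 on 8.88 for Klrd1 and 5.97 on 11.9 for Klrk1. On log2(normalized count + 1), which weighs each mouse equally, the differences were smaller, at −0.58 for Ncr1, −0.17 for Klrd1 and −0.39 for Klrk1. That of Klrd1 depended on single libraries. It turned positive, to 0.28 without wild-type replicate 6, 0.16 without wild-type replicate 5 and 0.11 without knockout replicate 12. Without wild-type replicate 3, which had no read of Klrd1, it was −0.83.

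All 10 genes had a lower mean in knockout, where 51.3% of the 15517 genes averaging 2 or more did. Of the 10, 6 were tested and 4 (Gzmc, Ncr1, Klrd1 and Klrk1) were not, and Klra4 reached the minimum only through its wild-type level. The 6 had a median log2 fold change of −1.17, against 0.01 over all 13215 genes tested, of which 49% were negative. In limma 0 of the 6 were called at a Benjamini-Hochberg adjusted p under 0.05, where 0.0151% of tested genes were called, 0.00757% as lower in knockout. At an unadjusted p under 0.05 all 6 were lower, as were 11.5% of tested genes, but with reads thinned to equal depth, or with depth as a covariate, 2 of the 6 reached it. For 3 of the 6 every knockout library lay below every wild-type library, which held for 1.29% of tested genes and 1.22% of those averaging 2 or more. Without wild-type replicate 4, limma called Gzma, Gzmb and Klra4, and 2.1% of tested genes as lower.

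On reads recovered from the table, edgeR's quasi-likelihood test called Gzma (0.0227% of tested genes were called lower) and DESeq2 called Gzma, Gzmb and Nkg7 (2.28%), with no adjusted p given for Klra4. When edgeR took genes averaging 2 or more, a setting added after the data were seen, it again called Gzma alone among the 10 (0.0193%). Its log2 fold changes were −1.83 for Gzma, −1.39 for Klra4 and −1.14 to −1.15 for Gzmb, Prf1 and Nkg7. Klrb1c stood at −1.06, Klrd1 at −1.01, Ncr1 at −0.89, Klrk1 at −0.58 and Gzmc at −0.05.

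**Figure D3:**
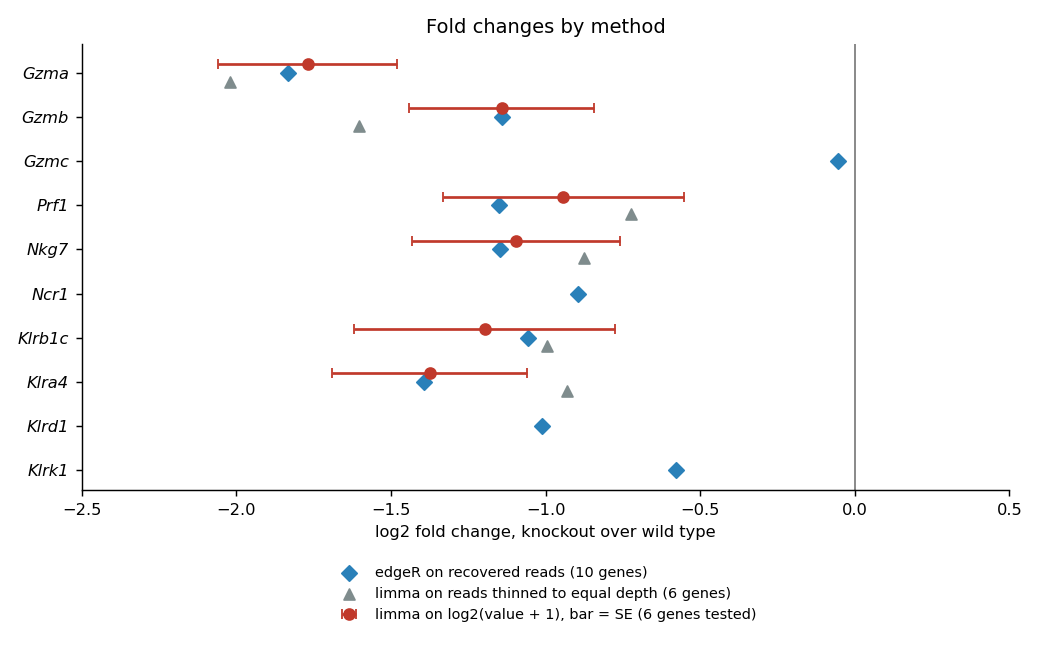
Log2 fold change of knockout over wild type for each gene from limma with its SE (circles, 6 genes), edgeR on recovered reads (diamonds, 10 genes) and limma on reads thinned to the depth of the shallowest library (triangles, 6 genes). Every value lies below 0, from −0.05 for Gzmc in edgeR to −2.02 for Gzma in thinned reads.

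Since depth differed between the genotypes, the genes were also read at equal depth. Every library was thinned to 1208896 reads in a single random draw. The 10 genes together had 16, 33 and 60 reads as lowest, median and highest in knockout and 42, 80 and 103 in wild type. In this sum 4 of 6 knockout libraries were below every wild-type library. The groups of Gzma, Klrb1c and Klra4 overlapped in this draw, and other draws were not made. For Gzma 3 of 6 knockout libraries were below every wild-type library, for Klra4 2 (1 to 3 reads in knockout and 2 to 7 in wild type) and for Klrb1c 1 (0 to 6 and 2 to 10). Gzma had a mean of 9.83 ± 5.84 thinned reads in knockout and 35.6 ± 15.3 in wild type (SD, n = 6 and 5), and Gzmb 7.5 ± 6.47 and 16 ± 5.52. At this depth Klrd1 averaged 1 read in both genotypes, Gzmc 0.833 in knockout and 0.6 in wild type, and Klrk1 1.67 and 2, so no difference was detectable in these at equal depth.

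In libraries of 3000000 to 8000000 reads only, 3 knockout and 4 wild-type, the log2 fold changes were −1.48 for Gzma, −1.14 for Klrb1c, −1.12 for Klra4, −1.07 for Gzmb, −1.05 for Nkg7 and −0.83 for Prf1. This window did not match depth. Knockout replicates 8 and 9 had 7602952 and 7097436 reads, more than the deepest wild-type library, replicate 5 with 5853454. With log10 depth as a covariate they were −1.26 for Gzma, −1.12 for Klra4 and −0.65 to −0.82 for the other 4. Depth and genotype go together in these libraries, so that covariate can take up part of the difference between the genotypes.

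**Figure D4:**
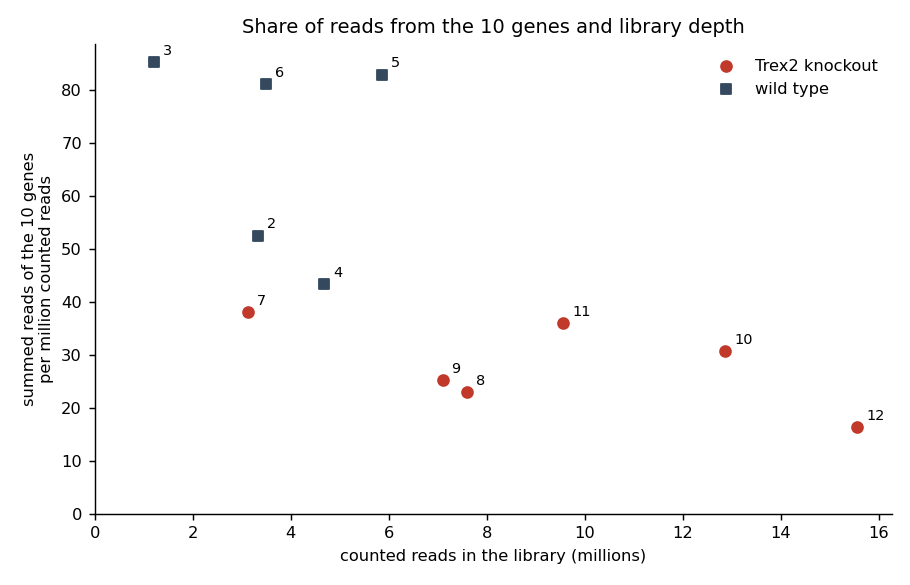
Summed reads of the 10 genes scaled to library depth (CPM) against the counted reads of each library, with replicate numbers beside the points. The knockout libraries lie at 16.4 to 38.1 CPM, below the wild-type libraries at 43.3 to 85.2. Every knockout library but replicate 7 is deeper than the deepest wild-type library, replicate 5.

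The libraries of a genotype differed among themselves as well. Knockout replicate 7 had the highest sum over the 10 genes in its group, 206 normalized counts, and replicate 12 the lowest, 88.5. They were the shallowest and the deepest knockout library, with 3125366 and 15557862 reads. Among wild-type libraries, replicates 3, 5 and 6 had 465, 440 and 444, while replicate 2 had 318 and replicate 4 226. Of these, replicate 3 was the shallowest (1208896 reads) and replicate 5 the deepest (5853454 reads). Whether the sums follow depth within a genotype was not tested. Once the group means were taken out, 14 of the 15 pairs of the 6 tested genes were positively correlated over the 11 libraries, with Pearson's r from −0.14 for Gzmb and Klra4 to 0.81 for Nkg7 and Klrb1c and a median of 0.52. Pairs with a gene too low to test ran from −0.70 for Gzmb and Gzmc to 0.81 for Klrd1 and Klrk1, with Gzmc and Ncr1 at −0.64. Gzmb correlated with Prf1 at 0.75 and with Nkg7 at 0.74. These are descriptions, and the points share their library and its depth.

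The genes closest to the mean of the 6 by the same measure were E2f1, a cell cycle transcription factor (r = 0.91), Gmds, an enzyme of GDP-fucose synthesis (0.89), and Hoxc10 (0.88), followed by Steap1 (0.88), Abhd8 (0.87) and Sept1 (0.87). Over all 13209 other tested genes r ran from −0.92 to 0.91 with a median of −0.02, so values of this size occurred in both directions.

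Gzma made up 31.3% ± 3.57 of the summed level of the 10 genes in knockout and 43.4% ± 9.36 in wild type (SD, n = 6 and 5). Gzmb made up 19.8% ± 5.42 and 17.4% ± 3.79, Prf1 8.96% ± 1.59 and 7.5% ± 2.71, and Nkg7 11.1% ± 2.79 and 9.63% ± 2.04, each in knockout and in wild type. These shares weigh genes by length as well as by level.

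Around the 10 genes, the rest of the pathway was read from 9 lists with 118 other genes in the table, of which 63 were tested. In limma 0 of the 63 passed an adjusted p of 0.05 in either direction. At an unadjusted p under 0.05, 27 were lower and 2 higher, where 11.5% of tested genes were lower and 12.9% higher. Of the 63, 53 were negative and 10 positive, where 49% of all tested genes were negative, and the median was −0.44. Among the negative genes, Ctsw, Slamf7 and Raet1e reached the minimum only through their wild-type level, so their direction was favoured by the filter. edgeR called 0 of the 63, and DESeq2 called 5 lower: Ccl5, Fcer1g, Tyrobp, Serpinb9 and Serpinb1a. Over all genes with an adjusted p, DESeq2 called 2.28% lower.

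Other granzymes hardly contributed. Gzmd, Gzme, Gzmf and Gzmk had 0 to 2 reads each in knockout and 1 to 5 in wild type, Gzmg and Gzmn had 0 in all 11 libraries, and Gzmm averaged 1.85 ± 0.546 normalized counts in knockout and 4.41 ± 3.5 in wild type. Of the granule cargo list 6 of 14 were tested and all 6 were negative, with a median log2 fold change of −0.14. Srgn, the proteoglycan that packs granzymes but also stands in granules of other leukocytes, had 1821 ± 1214 normalized counts in knockout and 3638 ± 961 in wild type (log2 fold change −1.22, SE 0.39, limma adjusted p = 0.115). Lamp1, a membrane protein of lysosomes and lytic granules, stood at −0.15 (SE 0.12, limma adjusted p = 0.483).

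The machinery that docks and fuses granules was negative in 8 of 10 tested genes, with a median of −0.34. Rab27a, a small GTPase that docks granules, had 78.5 ± 14.4 normalized counts in knockout and 121 ± 30.6 in wild type (−0.61, SE 0.18, limma adjusted p = 0.108), and the actin regulator Coro1a stood at −0.995 (SE 0.32, limma adjusted p = 0.115). Inhibitors of the granzymes were negative in 4 of 4 tested genes. Serpinb9, the intracellular inhibitor of granzyme B, had 46.6 ± 8.35 in knockout and 75.5 ± 17.7 in wild type (−0.67, SE 0.19, limma adjusted p = 0.108). Serpinb1a stood at −0.50 (SE 0.15, limma adjusted p = 0.108), with all 6 knockout libraries below every wild-type library, which held for 1.29% of tested genes.

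Of 30 other genes in the list of natural killer receptors 7 were tested and 6 were negative (median −0.48). Which cells made them in this skin was not tested. Klra17, a Ly49 family member, had 27.7 ± 15 normalized counts in knockout and 52.2 ± 22.5 in wild type (−1.02, SE 0.42, limma adjusted p = 0.17). Cd244, the receptor for Cd48, stood at −0.76 (SE 0.32, limma adjusted p = 0.174). Klra8, the activating receptor Ly49H, had 11.5 ± 5.51 in knockout and 16.8 ± 9.09 in wild type (−0.36, SE 0.54, limma adjusted p = 0.701). Among the 23 under the minimum, the knockout mean was the lower in 20 and the higher in 2, and Klra5 was without reads. Klra7 and Klra9, of the Ly49 family, were singled out after their values were seen. Klra7 had 5.74 ± 1.8 in knockout and 14.9 ± 3.88 in wild type, and Klra9 3.05 ± 1.99 and 8.84 ± 3.07. The groups of both genes did not overlap. Every knockout library lay below every wild-type library in 1.22% of all genes averaging 2 or more.

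Receptor adaptors and kinases were negative in 7 of 8 tested genes (median −0.66). Tyrobp, the adaptor of Klra4, had 1051 ± 407 normalized counts in knockout and 1886 ± 432 in wild type (−0.91, SE 0.26, limma adjusted p = 0.108). Fcer1g, an adaptor of Ncr1 and of Fc receptors, stood at −0.82 (SE 0.24, limma adjusted p = 0.108). Myeloid cells make both in large amounts. Ligands of these receptors were mixed, with 8 of 11 tested genes negative and a median of −0.34. The class I gene H2-K1 stood at −0.50 (SE 0.17, limma adjusted p = 0.12) and Clec2d, the ligand of an inhibitory Klrb1 receptor, at −0.52 (SE 0.19, limma adjusted p = 0.139). H60c, a ligand of the Klrk1 receptor made in keratinocytes, had 50.7 ± 43.8 in knockout and 19.4 ± 21.2 in wild type (2.06, SE 0.92, limma adjusted p = 0.191).

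Transcription factors of cytotoxic cells were near the floor where they are most specific. Tbx21 had 1.55 ± 1.32 normalized counts in knockout and 4.42 ± 1.58 in wild type, from 19 and 15 reads. Eomes had 4.89 ± 2.18 in knockout and 8.25 ± 4.18 in wild type, from 49 and 30 reads. Among the 5 tested factors 4 were negative. Prdm1, which is also expressed in the differentiating epidermis, had 245 ± 59 normalized counts in knockout and 138 ± 60.6 in wild type (0.89, SE 0.25, limma adjusted p = 0.108), and Ets1 stood at −0.55 (SE 0.20, limma adjusted p = 0.132). Runx3, the RUNX factor of these cells, stood at −0.32 (SE 0.36, limma adjusted p = 0.601).

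Of the interleukin axis that sustains natural killer cells, 6 of 8 tested genes were negative (median −0.52). Il2rb, the shared receptor chain for interleukins 2 and 15, had 27.1 ± 9.34 in knockout and 45.8 ± 11.1 in wild type (−0.76, SE 0.25, limma adjusted p = 0.119), and Il2rg stood at −0.61 (SE 0.23, limma adjusted p = 0.143). Il15 itself had 14.7 ± 4.05 in knockout and 15 ± 10.1 in wild type (0.14, SE 0.36, limma adjusted p = 0.831). Cytokines and chemokines that cytotoxic cells make were negative in 4 of 4 tested genes (median −1.42). Ccl5, a chemokine that attracts T cells, had 37.2 ± 13.1 in knockout and 100.5 ± 37.3 in wild type (−1.37, SE 0.35, limma adjusted p = 0.108), and Ccl4 stood at −1.91 (SE 0.68, limma adjusted p = 0.134). Ifng had 3 reads in knockout and 7 in wild type.

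Markers of the cell types that could carry these genes were read beside them. The 8 markers of natural killer cells summed to 54.8 to 132 normalized counts in knockout and 147 to 370 in wild type, but 5 of them (Ncr1, Klrb1c, Klra4, Gzma and Prf1) are among the 10 genes themselves. The 8 alpha beta T cell markers summed to 34.3 to 48.2 in knockout and 37.2 to 85.6 in wild type, with 1 tested. Within that list 5 of the 7 below the minimum had a lower mean in knockout. The tested marker, Cd4, had 18.5 ± 4.64 in knockout and 16.1 ± 17.5 in wild type (0.63, SE 0.48, limma adjusted p = 0.426). Cd3d had 1.67 ± 0.742 in knockout and 6.25 ± 3.04 in wild type, from 18 and 22 reads, while Trac had 3.29 ± 1.59 and 2.75 ± 2.59. The groups of Cd3d did not overlap, with knockout the lower, as in 1.22% of genes averaging 2 or more. Cd3d reached that average only through its wild-type level. Cd8a and Cd8b1 summed to 0 to 3.55 in knockout and 2.22 to 11.8 in wild type.

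Of 8 gamma delta T cell markers in the table, 1 was tested. They summed to 27.8 to 51.4 in knockout and 45.1 to 65.3 in wild type, mostly from Sox13, which other skin cells also make. Below the minimum, 5 had a lower and 1 a higher knockout mean. Tcrg-C1 had 7 reads in knockout and 14 in wild type, Tcrg-C4 5 and 0, and Tcrg-V5 had none in any library. The 6 mast cell markers, of cells that can also make granzyme B, summed to 926 to 1254 in knockout and 839 to 1526 in wild type, and all 5 tested were negative (median −0.22).

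Of the myeloid and keratin markers, 0 passed an adjusted p of 0.05 in limma. DESeq2 called 2 neutrophil markers and 1 macrophage marker lower, and 0 of the keratins. Without wild-type replicate 4, limma called 1 neutrophil marker, 1 macrophage marker and 0 of the keratins. All 6 neutrophil markers had a negative log2 fold change (median −1.20, all 6 at an unadjusted p under 0.05) and summed to 2856 to 18622 in knockout and 10812 to 25546 in wild type. Of 6 macrophage markers 5 were negative (median −0.39, 3 at an unadjusted p under 0.05) and Mrc1 stood at 0.13, with overlapping sums of 5368 to 9120 in knockout and 7992 to 12200 in wild type. Ptprc, the CD45 antigen of all leukocytes, had 752 ± 265 in knockout and 1042 ± 170 in wild type (−0.53, SE 0.22, limma adjusted p = 0.174). Krt14 and Krt5, keratins of basal keratinocytes, stood at 0.85 (SE 0.37, limma adjusted p = 0.182) and 0.78 (SE 0.33, limma adjusted p = 0.173). B cell markers summed to 18 to 29.5 in knockout and 28.1 to 54.2 in wild type, and those of plasmacytoid dendritic cells to 1.74 to 18 and 5.45 to 29. The part of these cell types in the lower levels of the 10 genes was not tested.

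**Figure D5:**
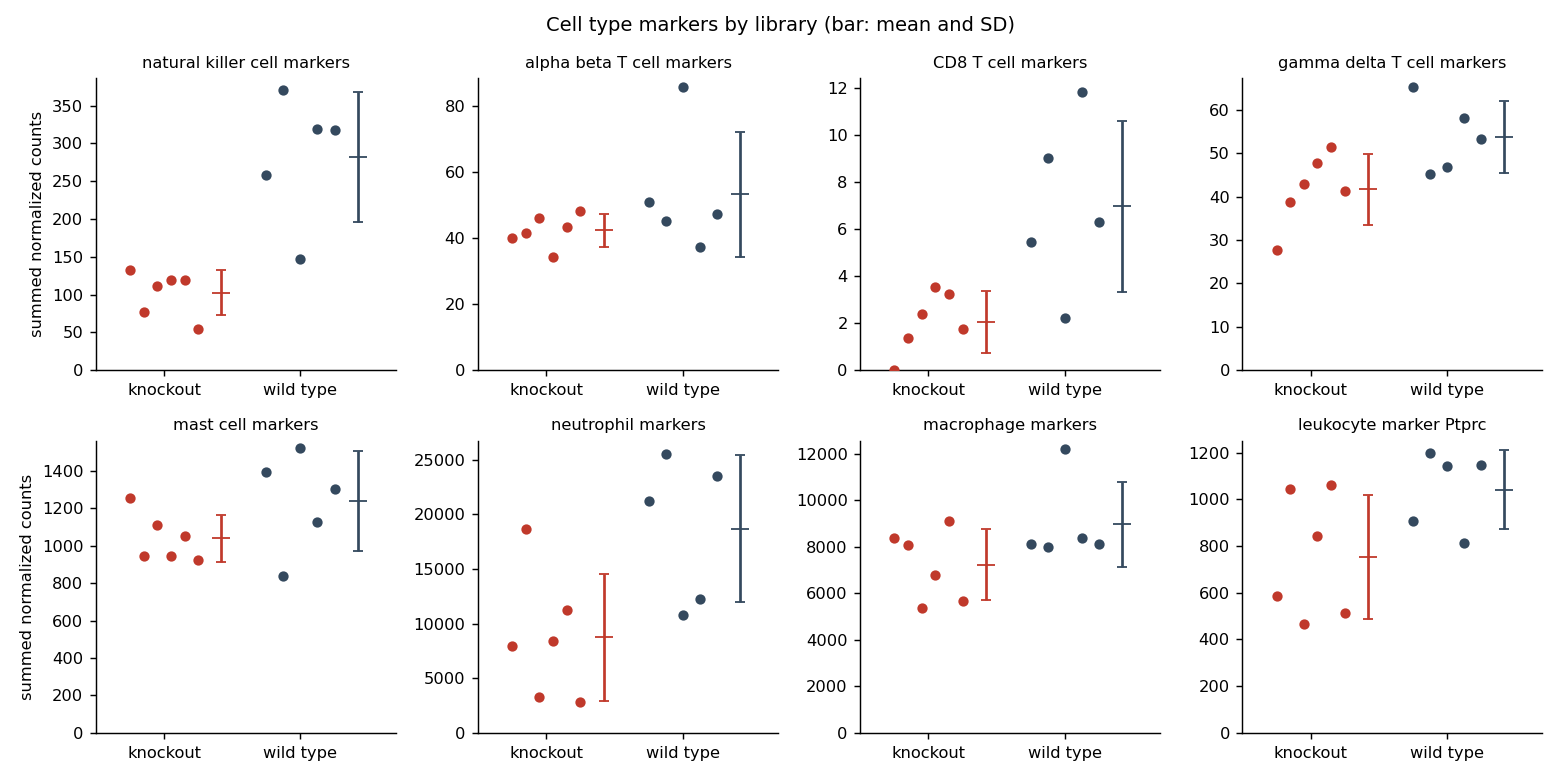
Summed normalized counts of 8 marker lists in every library, knockout left and wild type right, with mean and SD. The natural killer list lies at 54.8 to 132 in knockout and 147 to 370 in wild type. That list holds Gzma, Prf1, Klrb1c, Klra4 and Ncr1, so its separation is not independent of the levels of these genes. The alpha beta, CD8 and gamma delta T cell, mast cell, neutrophil and macrophage lists overlap between the groups, as does Ptprc. Ptprc lies between 468 and 1059 in knockout and 813 and 1200 in wild type.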

How the data were processed

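RNA from pulverized back skin of 6 knockout and 5 wild-type mice was reduced to mRNA and sequenced, per the labels' protocols. The deposited values are a normalized signal, gene counts divided by 1 size factor per library by the authors. The submitters' processing notes name the build GRCm38, DESeq2 1.8.1, featureCounts 1.4.6 and TopHat2 2.0.8, while the sources used here give no annotation or strand setting, so overlapping antisense reads cannot be told apart. Each column number was matched to the sample title with that number. All values (100% within 0.01 of a whole read) were multiples of 1 step per library, so reads were recovered by division. The series' design text calls the samples biological replicates, and every pair differed beyond sampling noise (chi-square per degree of freedom at least 4.74). This measure is lower for shallow libraries, and it was lowest for a pair with the shallowest library.

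Genes averaging 10 or more normalized counts (13215) were log2-transformed after adding 1 and tested with limma-trend (limma 3.58.1, R 4.3.3), with Benjamini-Hochberg adjustment over all of them. Genes were named by rule: all 10, then per list the called genes or else the 2 of smallest p, the listed markers, and the 6 genes most correlated with the mean of the 6 tested members (Klra7, Klra9, Klra5, H60c, Runx3, Il15, Tbx21, Ifng and the granzymes outside the 10 were named beyond it, after their values were seen). The members and lists were chosen with earlier results of these data known. Alternatives were pseudocounts, filters, TMM and upper quartile scaling, edgeR 4.0.16 and DESeq2 1.42.0 on recovered reads, thinned reads, a depth covariate and leaving out libraries. The fits were tested on simulated counts. Exon lengths and positions are from GENCODE M21, promoters from RefSeq. Of 188 list symbols 183 were in the table, 2 under an older name. The result of 1 marker list is not reported here.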

Additional observations from a re-analysis of the deposited data

How the results depend on the processing

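The median log2 fold change of the 6 tested genes was negative under every alternative run, from −0.78 with the depth covariate to −1.21 with upper quartile scaling, and from −1.0 to −1.33 when 1 library was left out. It was −0.96 in thinned reads and −0.92 without knockout replicates 9 and 12. A minimum mean of 50 left only Gzma and gives no median. Each of the 6 genes was negative in all 144 combinations of gene and alternative, and 8 of these passed the threshold, which limma on all libraries did not. Calls among the 6 depended on the tool and on 1 library. edgeR called 1 (Gzma, 4 genes over the whole table at either minimum level) and DESeq2 called 3, with 576 over all genes and 5 in the pathway lists. Leaving out 1 library at a time gave 0 to 3 calls among the 6, 0 to 5 in the pathway lists and 2 to 740 over all genes. The highest of each came without wild-type replicate 4, where Gzma, Gzmb and Klra4 were called, and the cause was not tested. The scaling and covariate alternatives were not run for Gzmc, Ncr1, Klrd1 and Klrk1. In thinned reads their log2 differences were 0.27 for Gzmc, −1.34 for Ncr1, 0.08 for Klrd1 and −0.20 for Klrk1, and Klrd1 stood at 0.16 without knockout replicates 9 and 12 and ran from −0.83 to 0.28 when 1 library was left out. No paired analysis was possible because the genotypes share no replicate numbers. At these depths 3 reads are the floor, and Gzmc, Ncr1 and Klrd1 had 3 reads or fewer in 4 or 5 of 11 libraries each.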
